A study of Mus musculus with 17 samples.

Results

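The genes described here are 9 members of the transforming growth factor-β (TGF-β) pathway in the heart of mice with mitochondrial DNA (mtDNA) mutations. They are the ligands *Tgfb1*, *Tgfb2* and *Tgfb3*, the receptors *Tgfbr1* and *Tgfbr2*, the latent TGF-β binding protein *Ltbp2*, the activin subunit *Inhba*, and the early targets *Smad7* and *Skil*. The members were chosen by gene name from the gene count table, and all 9 were found among its 56748 genes. All 9 also passed the filter on low counts, which left 16195 genes for testing. Poly(A)-selected RNA was sequenced from heart tissue of 8 control mice (Ctrl) and 9 mice named *Polg* hMut (hMut). Each heart gave 1 library, and the part of the heart used is not given. The hMut mice carried the genotype *Polg* iMut/iMut; +/Ckmm-cre, so that Cre, driven by the promoter of muscle creatine kinase, switched on the proofreading-deficient mtDNA polymerase POLG D257A in heart and other striated muscle. The genotype of the controls beyond the name Ctrl is not given in the sources used here. The mice were 12 to 16 months old, the age of each mouse is not given, and no treatment was applied. Hearts are named by group and replicate number, which is the library number in the labels.

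TGF-β ligands are made as precursors that are cleaved and kept inactive by their own propeptide, which is tethered to the matrix by latent TGF-β binding proteins and freed by integrins, thrombospondin or proteases. The active ligand brings the type II receptor TGFBR2 and the type I receptor TGFBR1 together, and TGFBR1 then phosphorylates SMAD2 and SMAD3, which enter the nucleus with SMAD4. Activins, dimers of subunits such as the one encoded by *Inhba*, use other receptors of the same family and the same SMADs. Among the first genes that respond are *Smad7* and *Skil*, whose products dampen the signal. In the heart the pathway is best known for driving fibroblasts to deposit matrix.

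The promoter windows below belong to the called members that had an entry in the RefSeq promoter table, and they show the DNA directly upstream of the genes whose transcripts rose. Each holds the 250 bases before the annotated start, 5′ to 3′ on the strand of the gene, with coordinates of GRCm38.p6, whereas the count table uses GRCm39. Capitals mark each CAGAC, the short SMAD-binding box, on either strand. The *Tgfb2* window lies at chr1:186705990-186706239 on the minus strand, the *Ltbp2* window at chr12:84876492-84876741 on the minus strand and the *Inhba* window at chr13:16011601-16011850 on the plus strand.
Tgfb2: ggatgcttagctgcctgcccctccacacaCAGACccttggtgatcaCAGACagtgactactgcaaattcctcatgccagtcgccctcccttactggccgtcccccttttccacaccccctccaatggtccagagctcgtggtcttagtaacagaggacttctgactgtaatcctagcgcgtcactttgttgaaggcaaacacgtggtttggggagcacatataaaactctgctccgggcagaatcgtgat
Ltbp2: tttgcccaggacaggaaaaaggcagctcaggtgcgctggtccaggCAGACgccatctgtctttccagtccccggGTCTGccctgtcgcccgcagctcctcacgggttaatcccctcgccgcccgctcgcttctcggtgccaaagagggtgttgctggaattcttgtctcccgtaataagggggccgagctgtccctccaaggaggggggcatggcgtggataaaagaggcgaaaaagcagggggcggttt
Inhba: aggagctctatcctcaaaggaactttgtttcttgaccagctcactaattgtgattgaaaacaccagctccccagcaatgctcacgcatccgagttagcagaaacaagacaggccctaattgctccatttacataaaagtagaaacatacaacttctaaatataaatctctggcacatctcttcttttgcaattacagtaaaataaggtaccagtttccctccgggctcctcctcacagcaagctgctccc

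CAGAC occurred 221 and 204 bases before the start of *Tgfb2*, and 205 and 176 bases before the start of *Ltbp2*, where the second match read GTCTG because it lay on the other strand. The *Inhba* window held 0 matches. Of the other members with an entry, 1 of the *Tgfbr1* windows held a match at 203 bases, *Tgfbr2* held 1 at 160 bases and *Tgfb1* held 0. *Tgfb3*, *Smad7* and *Skil* had no entry, so 6 of the 9 members were matched. Among all 32536 windows of this length 42.2% held CAGAC, so a match is common. The palindromic SMAD box GTCTAGAC, found in 0.169% of all windows, and the AP-1 motif TGANTCA, found in 6.73%, were also searched on both strands and occurred in none of the members' windows.

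Total counts per heart were 34425783 to 46486964 in Ctrl and 32915159 to 40175122 in hMut. Genes encoded by mtDNA took 23.5% to 30.9% of the counts in Ctrl and 15.9% to 23.0% in hMut. All 10 cardiomyocyte markers listed passed the filter. Their summed level was 55381 to 66817 CPM in Ctrl, where CPM are counts scaled to library size by the trimmed mean of M-values (TMM). It was 43231 in hMut replicate 6, 40935 in hMut replicate 9 and 53501 to 65996 in the other 7 hMut hearts. Of the 10 markers 0 had a log2 fold change above 0. Their median was -0.25 with all hearts and -0.17 without replicates 6 and 9, and edgeR called 0 of them. Replicates 6 and 9 stood apart from the other hMut hearts in several of the values below, and the calls are therefore also given without both. *Xist* and Y-linked counts assigned 3 Ctrl and 2 hMut hearts to females. Over all genes tested, the quasi-likelihood test of edgeR with Benjamini-Hochberg adjustment called 749 genes at an adjusted p under 0.05, of which 564 were higher and 185 lower in hMut.

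Of the 9 members, 4 rose in hMut hearts, *Inhba*, *Ltbp2*, *Tgfb2* and *Skil*, and none fell. This is a share of 44.4%, against 4.62% of all genes tested that were called in either direction, 3.48% called higher and 1.14% called lower. The members were chosen with earlier results of these data known, so this comparison of shares is only a description. The median log2 fold change of the 9 members was 0.34, and that of all genes tested was 0.0023. The range of the fitted changes ran from 0.11 for *Tgfbr2* to 2.41 for *Inhba* on the log2 scale. These are measurements of bulk heart tissue, in which a change in the number of cells of a type and a change in the RNA per cell cannot be told apart.

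**Figure D1:**
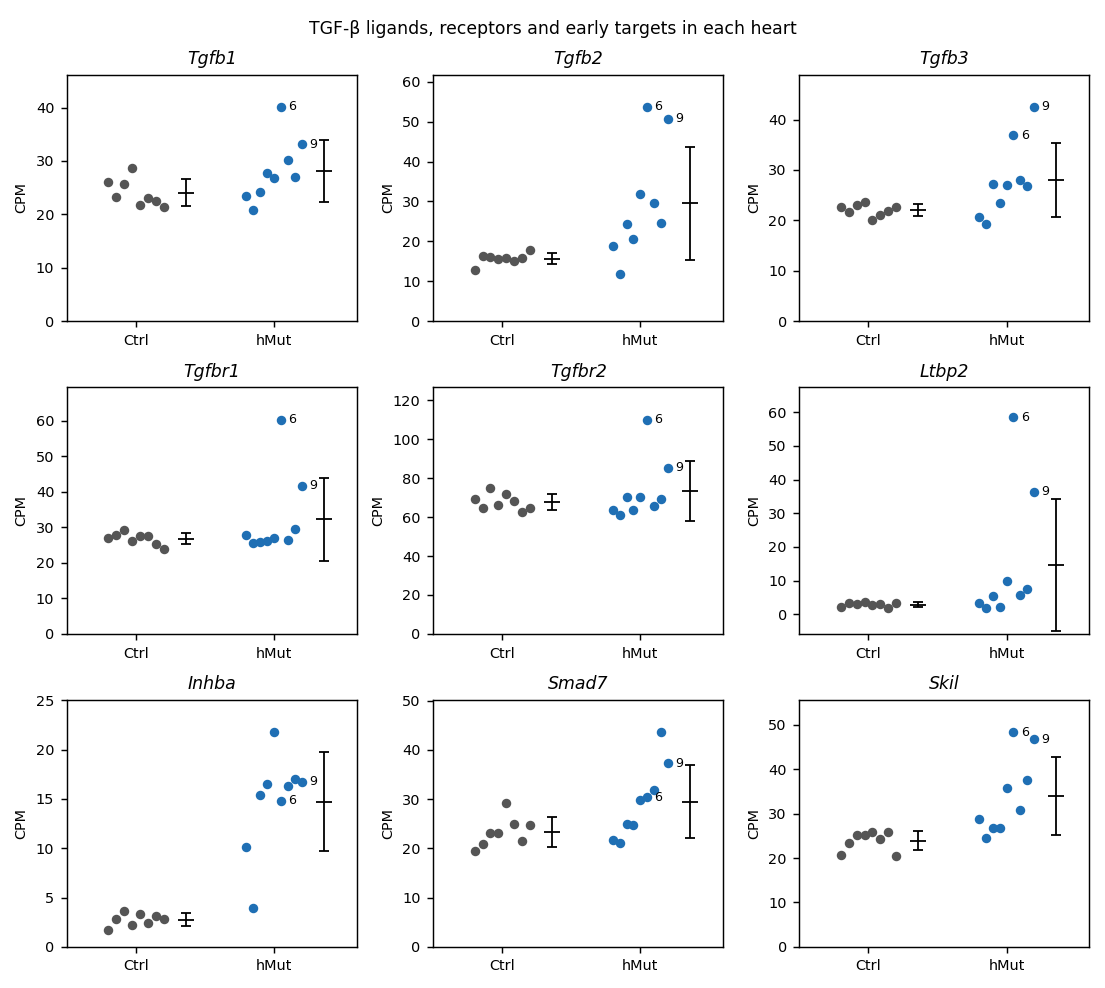
CPM of the 9 genes in each heart (y axis, linear), for 8 Ctrl hearts (grey) and 9 hMut hearts (blue), with the digits 6 and 9 marking those hMut replicates and the black bar giving mean ± SD. *Inhba* is the gene in which every hMut heart lies above every Ctrl heart, and in *Ltbp2* replicates 6 and 9, at 58.6 and 36.4 CPM, lie far above the other hMut hearts, so that the SD of 19.6 CPM exceeds the mean of 14.6 CPM and its bar runs below 0.

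Among the 3 ligands, *Tgfb2* rose, while the increases of *Tgfb3* and *Tgfb1* did not pass the threshold. *Tgfb2* (ENSMUSG00000039239, chromosome 1, 186354989 to 186438186 of GRCm39, minus strand) encodes the isoform that is needed for the valves and septa of the embryonic heart. It lay between 12.7 and 17.8 CPM in Ctrl hearts with a median of 15.7. In hMut hearts it lay between 11.7 and 53.7 CPM with a median of 24.6. The highest levels were in replicates 6 (53.7 CPM) and 9 (50.8 CPM). All hMut hearts but replicate 2, which was below all Ctrl hearts, exceeded the highest Ctrl value (8 of 9). At least 8 hMut hearts above every Ctrl heart were found in 1.70% of the genes tested. The means were 15.6 ± 1.44 CPM (SD, n = 8) and 29.5 ± 14.2 CPM (SD, n = 9), and the log2 fold change was 0.92 ± 0.23 (SE; edgeR, adjusted p = 0.0303). The coefficient of variation was 9.2% in Ctrl and 48.0% in hMut.

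Without replicates 6 and 9 the log2 fold change of *Tgfb2* was 0.56 with an edgeR adjusted p of 0.04995. The call was lost when Ctrl replicate 1, 5, 6 or 7 or hMut replicate 5, 7 or 9 was left out, with edgeR adjusted p-values from 0.0517 to 0.0584, and with sex as a covariate (0.0537). It was also lost with the replicate number as a block (0.67, edgeR adjusted p = 0.126). The body of *Tgfb2* is overlapped on the opposite strand by the long non-coding RNA *Gm35546*, which shares 0 exon bases with it in GENCODE M39. *Gm35546* itself had 12.3 ± 1.88 CPM in Ctrl and 17.9 ± 3.59 CPM in hMut, a log2 fold change of 0.54 ± 0.12 (edgeR adjusted p = 0.0165). The count table gives *Tgfb2* a gene length of 5791, against 6258 exon bases in GENCODE M39, so the exons counted may differ. Only reads on shared exon bases would be in doubt, as the use of strand in counting is not stated.

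*Tgfb3* (chromosome 12, 86103519 to 86125815, minus strand), the isoform known from palate fusion, lay between 20.1 and 23.7 CPM in Ctrl with a median of 22.2, and between 19.3 and 42.6 CPM in hMut with a median of 27.1. Here 6 of 9 hMut hearts exceeded the highest Ctrl heart, with replicate 9 at the top, and the groups overlapped. Its change of 0.34 ± 0.12 on the log2 scale (SE) had an interval of ±2 SE of 0.096 to 0.59 and an edgeR adjusted p of 0.106. It passed the threshold when hMut replicate 2 was left out (0.40, edgeR adjusted p = 0.0346) and with limma-voom and sample quality weights together (0.25, adjusted p = 0.0459). *Ttll5*, on the opposite strand, shares 179 exon bases with *Tgfb3* in GENCODE M39 and had 12.9 ± 1.48 CPM in Ctrl and 13.7 ± 1.06 CPM in hMut (edgeR adjusted p = 0.368). That annotation gives *Tgfb3* 5213 exon bases, against a gene length of 3383 in the count table. As the use of strand in counting is not stated, reads of the shared bases cannot be assigned with certainty.

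*Tgfb1* (chromosome 7, 25386427 to 25404502, plus strand), the isoform most studied in fibrosis and immune regulation, lay between 21.4 and 28.8 CPM in Ctrl with a median of 23.2. It lay between 20.8 and 40.2 CPM in hMut with a median of 27.0. The groups overlapped widely, with 3 hMut hearts above and 1 below every Ctrl heart. Its log2 fold change of 0.23 ± 0.11 (SE, ±2 SE interval 0.016 to 0.44) missed the threshold after adjustment (edgeR adjusted p = 0.185).

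Whether the ligands moved unequally was tested on the ratio of their counts within each heart, which does not depend on the scaling of libraries. The log2 ratio of *Tgfb2* to *Tgfb1* was -0.62 ± 0.24 (SD, n = 8) in Ctrl and -0.050 ± 0.44 (SD, n = 9) in hMut. The difference of 0.57 had a two-sided exact permutation p of 0.00588 over the 24310 splits of the hearts, and 0.0147 after Benjamini-Hochberg adjustment over the 5 ratios tested. In 6 of 9 hMut hearts this ratio was above every Ctrl heart. The ratio of *Tgfb2* to *Tgfb3* rose by 0.48 on the log2 scale, from -0.50 ± 0.16 to -0.025 ± 0.36 (exact permutation p = 0.00366, adjusted p = 0.0147), and 8 hMut hearts exceeded all Ctrl hearts in it. The ratio of *Tgfb3* to *Tgfb1* differed by 0.095 (exact permutation p = 0.236, adjusted p = 0.236). Without hMut replicates 6 and 9 the differences in the first 2 ratios were 0.41 and 0.36, both with an adjusted exact permutation p of 0.0509.

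Levels of different genes were compared per transcript length, in FPKM, which is CPM divided by the gene length in kilobases given in the table. The 3 ligands summed to 13.0 to 15.4 FPKM in Ctrl hearts, with a median of 13.9, and to 11.9 to 28.1 FPKM in hMut hearts, with a median of 17.5. *Tgfb3* was the largest part of this sum, at a median of 46.5% in Ctrl and 43.6% in hMut. *Tgfb1* made up a median of 33.8% in Ctrl and 30.5% in hMut. *Tgfb2* made up 15.6% to 22.0% in Ctrl (median 19.6%) and 17.1% to 33.0% in hMut (median 24.6%). The upper end of this range was hMut replicate 6 at 33.0% with replicate 9 at 31.4%, the hearts with the highest sums.

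**Figure D2:**
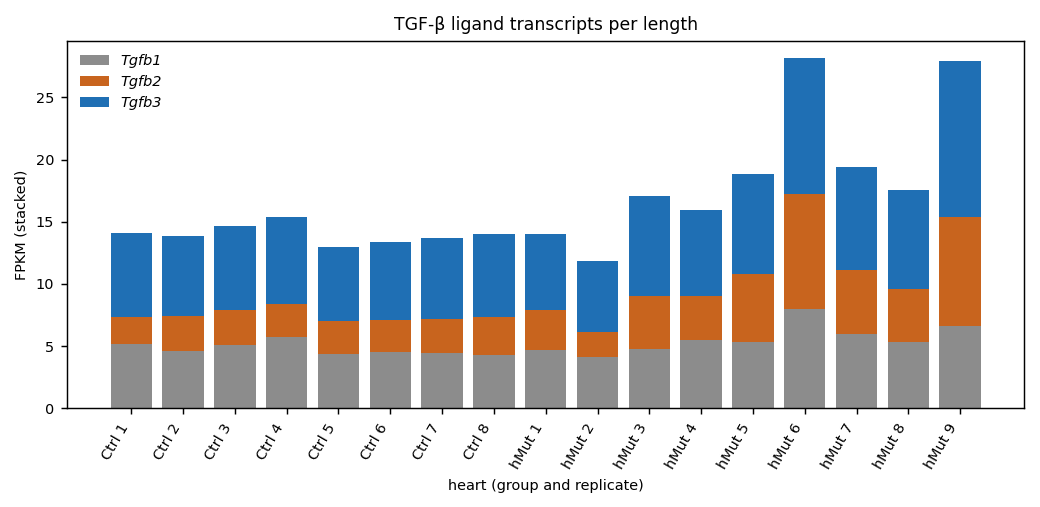
Stacked bars of *Tgfb1*, *Tgfb2* and *Tgfb3* in each of the 17 hearts, in FPKM (y axis, from 0). The Ctrl bars end between 13.0 and 15.4 FPKM, whereas the hMut bars end between 11.9 and 28.1 FPKM, with replicates 6 and 9 the tallest and with the widest *Tgfb2* segments.

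*Ltbp2* (ENSMUSG00000002020, chromosome 12, 84829986 to 84923306, minus strand) lies 1180213 bases from *Tgfb3* on the same chromosome. It encodes a matrix protein of the latent TGF-β binding protein family that associates with elastic microfibrils and, unlike its relatives, is not known to bind the latent ligand. It lay between 1.84 and 3.64 CPM in Ctrl with a median of 2.998, and between 1.98 and 58.6 CPM in hMut with a median of 5.85. Replicate 6 had 58.6 CPM and replicate 9 had 36.4 CPM, while the other 7 hMut hearts lay between 1.98 and 9.74 CPM. In all, 6 of 9 hMut hearts exceeded the Ctrl hearts, and the other 3 fell within the Ctrl range.

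The log2 fold change of *Ltbp2* was 2.33 ± 0.62 (SE; edgeR adjusted p = 0.0403), a ratio of means of 5.01, and the coefficient of variation was 22.0% in Ctrl and 135% in hMut. The size rested on the pair of high hearts. Without both, the log2 fold change was 0.83 with an edgeR adjusted p of 0.125. Leaving out 1 library at a time ended the call for each of the 8 Ctrl hearts and for hMut replicates 5, 6, 7 and 9, with edgeR adjusted p-values of 0.0504 to 0.0803 and log2 fold changes of 1.65 without replicate 6 and 2.03 without replicate 9. The call was also lost with limma-voom and sample quality weights together (1.01, adjusted p = 0.0957) and with sex as a covariate (1.92, edgeR adjusted p = 0.102). With the replicate number as a block it was lost too (1.11, edgeR adjusted p = 0.247).

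*Inhba* (ENSMUSG00000041324, chromosome 13, 16186436 to 16206206, plus strand), which encodes the βA subunit of activin A, separated the groups completely. In Ctrl hearts it lay between 1.66 and 3.61 CPM with a median of 2.84, on 61 to 125 counts per heart. In hMut hearts it lay between 3.91 and 21.8 CPM with a median of 16.3, on 142 to 766 counts. All 9 hMut hearts were above every Ctrl heart, as was true of 88 genes or 0.543% of those tested. Replicate 2 (3.91 CPM) was close to the Ctrl hearts, replicate 1 followed at 10.1 CPM, and the other 7 lay between 14.8 and 21.8 CPM.

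The means of *Inhba* were 2.77 ± 0.634 CPM (SD, n = 8) in Ctrl and 14.7 ± 5.04 CPM (SD, n = 9) in hMut. The log2 fold change was 2.41 ± 0.25 (SE; edgeR adjusted p = 9.79e-06), a ratio of means of 5.33. In contrast to *Ltbp2* and *Tgfb2*, the levels of *Inhba* in replicates 6 (14.8 CPM) and 9 (16.8 CPM) were within the range of the other hMut hearts. The gene was called in each of the 27 alternative settings, with log2 fold changes from 2.31 to 2.54.

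Neither receptor passed the threshold. *Tgfbr1* (chromosome 4, 47353222 to 47414931, plus strand), the type I receptor, lay between 24.0 and 29.3 CPM in Ctrl with a median of 27.3, and between 25.4 and 60.3 CPM in hMut with a median of 27.1. *Tgfbr2* (chromosome 9, 115913361 to 116004428, minus strand), the type II receptor that binds the ligand, lay between 62.6 and 75.0 CPM in Ctrl with a median of 67.2, and between 61.3 and 110 CPM in hMut with a median of 69.2. For both genes replicates 6 and 9 were the highest hMut hearts, and most of the others lay within the Ctrl range.

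For *Tgfbr1* the log2 fold change was 0.27 ± 0.15 (SE; ±2 SE interval -0.036 to 0.57, edgeR adjusted p = 0.266). For *Tgfbr2* it was 0.11 ± 0.10 (SE; ±2 SE interval -0.079 to 0.31, edgeR adjusted p = 0.457). Without replicates 6 and 9 the value for *Tgfbr1* was 0.0037 (edgeR adjusted p = 0.980) and that for *Tgfbr2* was -0.030 (edgeR adjusted p = 0.771), so the direction of *Tgfbr2* turned. The log2 ratio of *Tgfbr1* to *Tgfbr2* counts differed by 0.11 between the groups (exact permutation p = 0.113, adjusted p = 0.188), and by 0.14 without hMut replicate 3 (adjusted exact permutation p = 0.0484).

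Of the early targets, *Skil* rose and *Smad7* did not pass the threshold. *Skil* (ENSMUSG00000027660, chromosome 3, 31149207 to 31176726, plus strand) encodes SnoN, a nuclear repressor that binds SMAD complexes. It lay between 20.5 and 26.0 CPM in Ctrl with a median of 24.8, and between 24.6 and 48.3 CPM in hMut with a median of 30.9. Of the hMut hearts, 8 of 9 exceeded all Ctrl hearts, with replicates 6 (48.3 CPM) and 9 (46.9 CPM) the highest and replicate 2 inside the Ctrl range. Its log2 fold change was 0.51 ± 0.13 (SE; edgeR adjusted p = 0.0291), a ratio of means of 1.42.

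Without replicates 6 and 9 the log2 fold change of *Skil* was 0.34 with an edgeR adjusted p of 0.0450. Leaving out 1 library ended the call for Ctrl replicates 1, 2, 6 and 8 and hMut replicates 5 and 9, with edgeR adjusted p-values of 0.0509 to 0.0634. The replicate number as a block also ended the call (0.41, edgeR adjusted p = 0.104). *Smad7* (chromosome 18, 75500600 to 75529006, plus strand), the inhibitory SMAD that targets the activated receptor, lay between 19.5 and 29.3 CPM in Ctrl with a median of 23.1, and between 21.2 and 43.6 CPM in hMut with a median of 29.7. Replicate 8 was the highest, and 5 of 9 hMut hearts exceeded all Ctrl hearts. The log2 fold change was 0.34 ± 0.13 (SE; ±2 SE interval 0.078 to 0.59, edgeR adjusted p = 0.122). The log2 ratio of *Skil* to *Smad7* counts differed by 0.17 between the groups (exact permutation p = 0.150, adjusted p = 0.188), so a difference between the changes of these 2 genes was not shown.

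**Figure D3:**
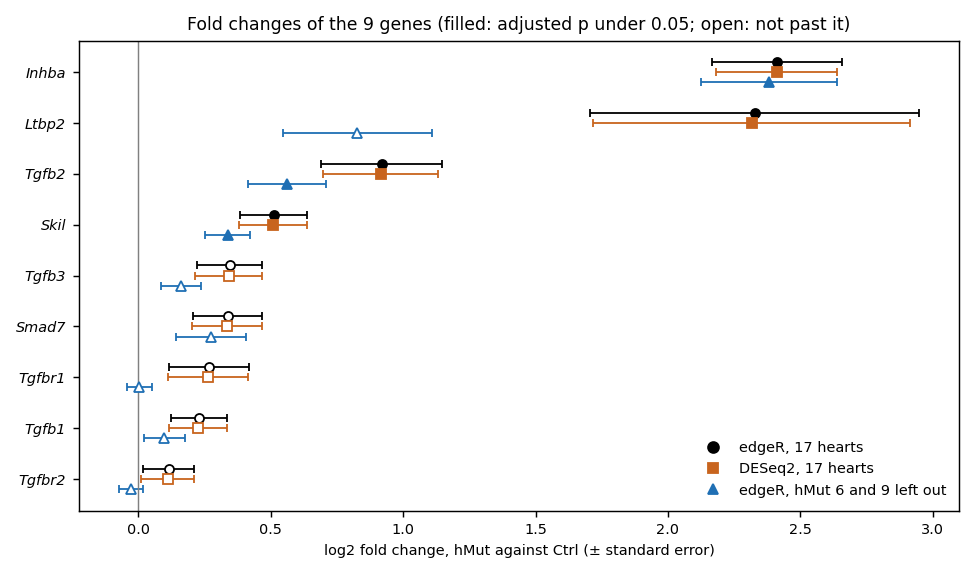
Log2 fold change of each gene, hMut against Ctrl (x axis, ± SE), from edgeR with all 17 hearts (black circles), from DESeq2 (orange squares) and from edgeR without hMut replicates 6 and 9 (blue triangles), filled where the adjusted p was under 0.05. *Inhba* stays near 2.4 in all 3, *Ltbp2* moves from 2.33 to 0.83 without the pair of hearts, and the receptors move to 0.0037 and -0.030.

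By level, the 9 genes spanned a wide range. In Ctrl hearts *Tgfbr2* was the highest at 8.28 ± 0.503 FPKM (SD, n = 8), followed by *Tgfb3* at 6.53 ± 0.343 FPKM, and the ranges of this pair did not overlap. *Smad7* (5.17 FPKM), *Tgfb1* (4.78 FPKM) and *Tgfbr1* (4.11 FPKM) followed, with each overlapping its neighbour in the order, as *Smad7* also overlapped *Tgfb3*. *Tgfb2* (2.70 FPKM) and *Skil* (2.47 FPKM) overlapped each other and lay below *Tgfbr1* without overlap. *Inhba* (0.433 FPKM) and *Ltbp2* (0.356 FPKM) were the lowest and overlapped each other. In hMut hearts *Tgfb2* (5.10 FPKM) stood above *Tgfbr1* (4.94 FPKM), *Inhba* reached 2.31 FPKM and *Ltbp2* 1.78 FPKM, and every pair of neighbours overlapped.

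The hearts differed in how many of the 9 genes they raised. All 9 genes were above every Ctrl heart in replicates 6 and 9, 7 in replicates 7 and 8, 6 in replicate 5, 5 in replicate 3, 3 in replicates 1 and 4, and 1, *Inhba*, in replicate 2. The share of all genes tested that lay above every Ctrl heart was not counted for single hearts. These counts therefore describe the hearts and do not set the 9 genes apart from other genes. Replicate 2 was the lowest hMut heart for each of the 9 genes. Replicate 6 was the highest for *Tgfb1*, *Tgfb2*, *Tgfbr1*, *Tgfbr2*, *Ltbp2* and *Skil*. *Inhba* was highest in replicate 5 and *Smad7* in replicate 8.

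**Figure D4:**
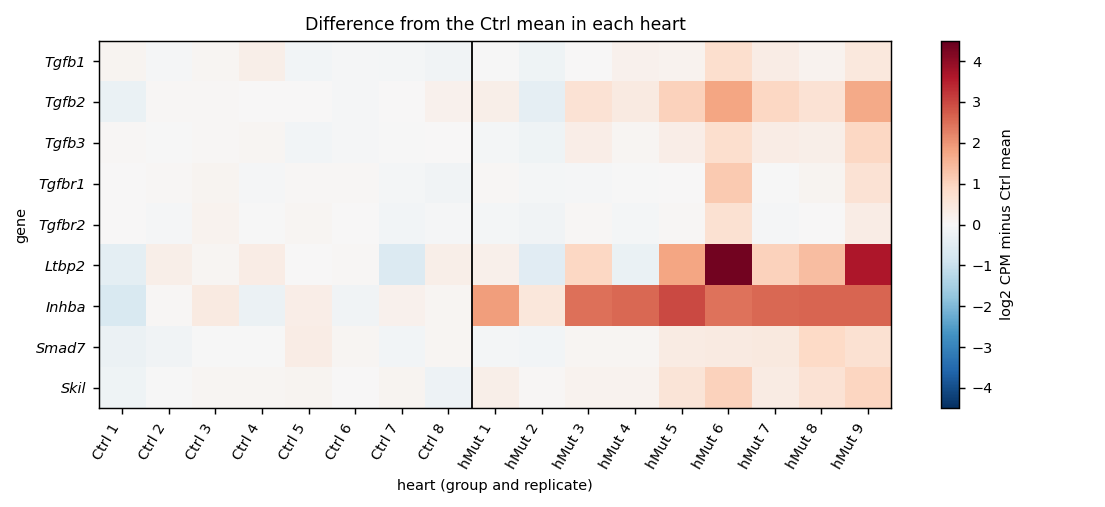
Log2 CPM minus the Ctrl mean for each gene (y axis) in each heart (x axis, Ctrl left of the black line), with red for higher and blue for lower than the Ctrl mean. The *Inhba* line is red in all 9 hMut hearts, replicate 2 holds the lowest hMut value of every gene, and the darkest cells are *Ltbp2* in replicates 6 and 9, at 4.34 and 3.65.

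Markers of other cell types were read in the same hearts. The summed level of 12 macrophage and monocyte markers was 291 to 427 CPM in Ctrl, 1429 in hMut replicate 6, 741 in replicate 9 and 366 to 467 in the other 7 hMut hearts. All 12 had a log2 fold change above 0 and 0 were called. Fibroblast markers summed to 1154 to 1547 CPM in Ctrl, 1256 and 1153 in replicates 6 and 9 and 1303 to 1600 in the other hMut hearts, with 0 of 10 called. *Gsn* made up most of this sum, at a mean of 999 CPM in Ctrl and at 691 and 654 CPM in replicates 6 and 9. The sum therefore says little about the other fibroblast markers. Of the 10 markers, 8 had a log2 fold change above 0, and the median was 0.21. Of the endothelial markers 2 of 10 were called higher (*Kdr* and *Cldn5*), with sums of 1233 to 1450 CPM in Ctrl and 1250 to 1708 in hMut. Mural cell markers summed to 1190 to 1448 CPM in Ctrl and 962 to 1493 in hMut, with 1 of 8 called higher (*Pdgfrb*). Without replicates 6 and 9 these calls were lost, at log2 fold changes of 0.40 for *Kdr* (edgeR adjusted p = 0.0546), 0.55 for *Cldn5* (0.0801) and 0.19 for *Pdgfrb* (0.107). The lymphocyte markers reached 51.7 CPM in Ctrl and 86.4 in hMut replicate 6, and lay between 6.31 and 13.4 in the other 8 hMut hearts, with 0 of 11 called. Platelet markers summed to 7.99 to 14.8 CPM in Ctrl and 9.88 to 18.7 in hMut, with 0 of 3 called, and epicardial markers to 2.77 to 6.29 and 4.20 to 11.4, with 1 of 3 called higher (*Wt1*), also without replicates 6 and 9. DESeq2 called 0 of the macrophage, lymphocyte and platelet markers, 2 of the fibroblast markers higher and 5 of the 10 cardiomyocyte markers lower, of which edgeR called 0. The low cardiomyocyte sum and the high macrophage sum of replicates 6 and 9 moved with the high levels of *Ltbp2*, *Tgfb2*, *Skil* and the receptors in the same hearts, and their part in these results was not tested. *Inhba* was at 3.91 to 21.8 CPM in the 7 hMut hearts with macrophage sums of 366 to 467 CPM, of which replicates 2 and 1 were the lowest (3.91 and 10.1 CPM), and at 14.8 and 16.8 CPM in replicates 6 and 9. The part of macrophage content in the level of *Inhba* was not tested.

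The other genes of the pathway and of its wider ligand family, here called pathway genes, were taken from 7 lists by role. Not all of these ligands act through TGFBR1 and TGFBR2, so a call among them does not by itself show TGF-β signalling. Of 114 listed genes 103 were tested, 12 rose and 0 fell in edgeR, a share of 11.7% against 4.62% of all genes. These lists too were chosen with earlier results of these data known, so the shares are only a description. Their median log2 fold change was 0.20 against 0.0023 over all genes. Without hMut replicates 6 and 9, 6 were called, and 2.67% of all genes tested. DESeq2 called 26 of the pathway genes, against 9.33% of all genes, and 3 of these were lower in hMut, *Acvr1b*, *Acvr2b* and *Ltbp1* (DESeq2 adjusted p = 0.0278, 0.0215 and 0.0290).

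Among other ligands of the family 2 of 14 rose and the median was -0.023. *Bmp10*, a ligand made in the atria that acts through endothelial receptors, lay between 0.0817 and 0.371 CPM in Ctrl, on 3 to 16 counts, and between 0.605 and 25.2 CPM in hMut with a median of 9.93. The hMut hearts all exceeded the Ctrl hearts (9 of 9), with replicate 9 the highest, and the log2 fold change was 5.58 ± 0.63 (edgeR adjusted p = 3.25e-05). The other atrial markers listed, summed without *Bmp10*, lay between 32.3 and 46.7 CPM in Ctrl and between 21.4 and 42.9 CPM in hMut. Most of this sum was *Stard10* (means of 27.7 CPM in Ctrl and 23.0 in hMut) and *Nr2f2* (13.0 and 11.4 CPM). The sum therefore rests on these genes and is a weak measure of atrial tissue. The atrial markers *Myl7* and *Sln* were too low in these libraries to pass the filter on low counts. The part of atrial tissue in the level of *Bmp10* was not tested. *Gdf15*, a stress-induced hormone, rose from 2.94 ± 1.54 CPM to 36.9 ± 28.1 CPM (3.66 ± 0.51, edgeR adjusted p = 0.000385), and both calls held without replicates 6 and 9 (edgeR adjusted p = 4.06e-05 for *Bmp10* and 0.000276 for *Gdf15*).

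Among other receptors 1 of 11 rose, with a median of 0.023. *Eng*, an endothelial co-receptor, had 148 ± 6.03 CPM in Ctrl and 190 ± 36.5 CPM in hMut (0.35 ± 0.09, edgeR adjusted p = 0.0371). *Acvr1b*, the type I receptor for activin, had 31.9 ± 2.12 and 27.2 ± 3.29 CPM, a log2 difference of -0.23 ± 0.07 that did not pass in edgeR (adjusted p = 0.0587) and passed in DESeq2. Among genes of latency and activation 2 of 17 rose, with a median of 0.20. They were *Thbs1*, which encodes thrombospondin-1, an activator of the latent ligand, at 11.4 ± 3.57 CPM in Ctrl and 26.5 ± 17.4 in hMut (1.23 ± 0.32, edgeR adjusted p = 0.0385), and *Fbn1*, which encodes the microfibril protein that anchors latent complexes, at 46.1 ± 9.66 and 76.6 ± 30.0 CPM (0.73 ± 0.20, edgeR adjusted p = 0.0404).

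Of 10 extracellular inhibitors 2 rose, with a median of 0.52. *Nog*, an antagonist of bone morphogenetic proteins, had 0.216 ± 0.118 CPM in Ctrl and 0.881 ± 0.410 in hMut (1.99 ± 0.36, edgeR adjusted p = 0.00377), on 4 to 21 counts in Ctrl and 6 to 62 in hMut. *Fmod*, a matrix proteoglycan that binds TGF-β, had 1.03 ± 0.421 and 2.80 ± 2.08 CPM (1.44 ± 0.39, edgeR adjusted p = 0.0413). Of 21 intracellular mediators and brakes 2 rose, with a median of 0.011, while 4.62% of all genes tested were called. Other brakes in this list were not called. *Smad6*, the inhibitory SMAD of the bone morphogenetic protein branch, had 11.8 ± 1.10 and 17.7 ± 4.03 CPM (0.59 ± 0.12, edgeR adjusted p = 0.00955), and *Pmepa1*, a membrane protein that withholds SMAD2 and SMAD3 from the receptor, had 33.5 ± 3.01 and 47.9 ± 11.2 CPM (0.51 ± 0.11, edgeR adjusted p = 0.0166). Each was above every Ctrl heart in 8 of 9 hMut hearts, and both calls held without replicates 6 and 9 (edgeR adjusted p = 0.0247 and 0.0127).

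Of 16 other early targets 1 rose, with a median of 0.32. It was *Ccn2*, the matricellular protein also known as connective tissue growth factor, at 40.4 ± 12.8 CPM in Ctrl and 105 ± 63.2 in hMut (1.38 ± 0.32, edgeR adjusted p = 0.0183). It reached 199 and 214 CPM in replicates 6 and 9, and was called without them too (edgeR adjusted p = 0.0413). *Id3*, a target of the bone morphogenetic protein branch, had 39.2 ± 2.78 and 48.7 ± 8.89 CPM and did not pass (0.31 ± 0.09, edgeR adjusted p = 0.0596). All 14 late matrix genes tested had a log2 fold change above 0, with a median of 0.58, and 2 were called. *Eln*, which encodes elastin, had 24.9 ± 5.86 and 52.3 ± 30.2 CPM (1.07 ± 0.27, edgeR adjusted p = 0.0332), and *Comp*, a matrix protein of cartilage and fibrotic tissue, had 3.01 ± 1.14 and 14.1 ± 17.2 CPM (2.23 ± 0.59, edgeR adjusted p = 0.0383).

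Several of these genes were high in replicates 6 and 9, in which *Comp* had 39.3 and 48.7 CPM, *Eln* 96.4 and 109 CPM, *Thbs1* 59.3 and 52.2 CPM and *Fbn1* 139 and 109 CPM. Without both hearts none of the genes of latency and late matrix passed the threshold, and the median log2 fold change was 0.20 in the late matrix list and 0.044 in the latency list. The log2 fold change was then 0.89 for *Comp* (edgeR adjusted p = 0.119), 0.61 for *Eln* (0.0525), 0.68 for *Thbs1* (0.0908), 0.45 for *Fbn1* (0.0814) and 0.81 for *Fmod* (0.122). *Eng*, which had 182 CPM in replicate 6 and 246 CPM in replicate 9, also lost its call, at a log2 fold change of 0.30 in place of 0.35 (edgeR adjusted p = 0.0701). *Bmp10*, *Gdf15*, *Nog* (edgeR adjusted p = 0.0115), *Smad6*, *Pmepa1* and *Ccn2* were called without both hearts.

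**Figure D5:**
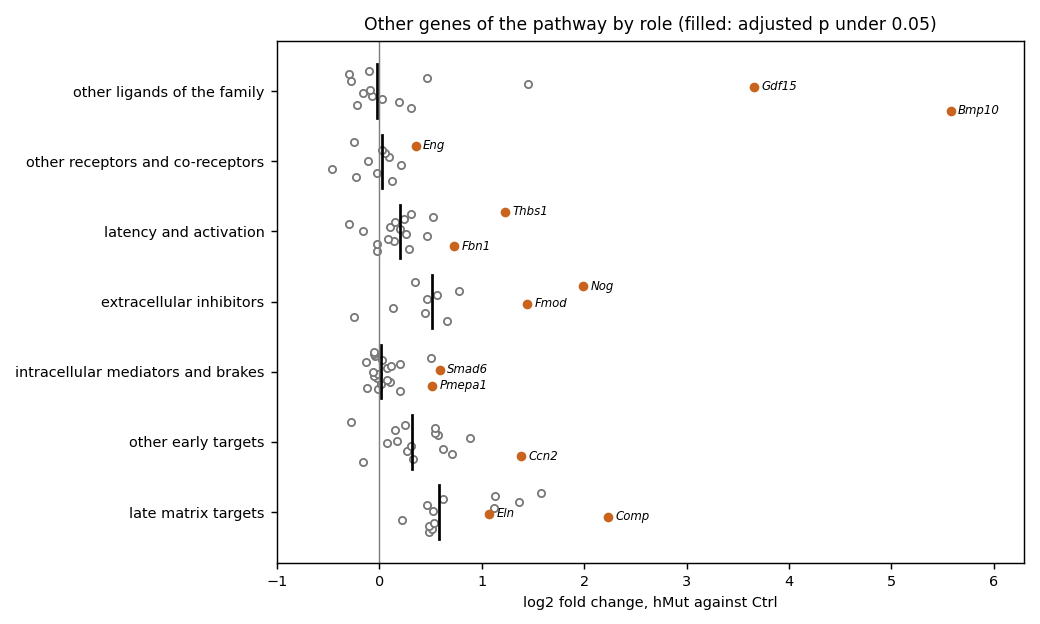
Log2 fold change (x axis, hMut against Ctrl) of the 103 other pathway genes tested, grouped by role (y axis), with filled points and names for the 12 called and a black line for the median of each list. *Bmp10* and *Gdf15*, at 5.58 and 3.66, lie farthest to the right, and the medians run from -0.023 in the other ligands to 0.58 in the late matrix genes.

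For each of the 4 genes called, the genes with the most similar levels across the 17 hearts were listed by Pearson's r of log2 CPM. The hearts share the group difference and the high levels of single hearts, so these are descriptions. For *Tgfb2* they were *Rtn4* (r = 0.98, Spearman's rho = 0.98), *Eef1a1* (r = 0.97, rho = 0.92) and *Meox1* (r = 0.97, rho = 0.88), with r of 0.97, 0.94 and 0.92 without hMut replicates 6 and 9, the hearts farthest from the median of *Tgfb2*. For *Ltbp2* they were *Itgbl1* (r = 0.98, rho = 0.92), *Svep1* (r = 0.97, rho = 0.89) and *Cilp* (r = 0.97, rho = 0.86), with r of 0.92, 0.87 and 0.91 without the same hearts. For *Inhba* they were *Dlg2* (r = 0.97, rho = 0.89), *Asns* (r = 0.97, rho = 0.85) and *Bmp10* (r = 0.97, rho = 0.90), each with r of 0.97 without hMut replicates 5 and 8. Taken as deviations from the group means, r was 0.89, 0.84 and 0.85 for these 3 genes, against 0.95 to 0.97 for the genes listed for *Tgfb2*, 0.96 to 0.97 for *Ltbp2* and 0.88 to 0.90 for *Skil*. For *Skil* they were *Adamtsl2* (r = 0.95, rho = 0.94), *2410006H16Rik* (r = 0.94, rho = 0.94) and *Bax* (r = 0.93, rho = 0.90), with r of 0.88, 0.88 and 0.83 without hMut replicates 6 and 9.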

How the data were processed

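The authors prepared poly(A)-selected libraries, used fastp for read filtering, HISAT2 2.2.1 for alignment to GRCm39 and featureCounts 2.0.6 for counting, per the methods and the submitters' processing notes. For 17 libraries the deposited table holds raw counts, not normalized. The strand setting of the counting is not given in the sources used here.

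Counts were tested with edgeR 4.0.16 in R 4.3.3 (quasi-likelihood test, TMM scaling, filterByExpr), with condition as the only term and Benjamini-Hochberg adjustment over all 16195 genes tested at a threshold of 0.05. The SE was computed as |log2 fold change| over √F. The edgeR fit was tested on simulated data. Count ratios (pseudocount 0.5) were compared by exact permutation, and log2 CPM used a prior count of 2. The hearts were separate by label, and 0 pairs of libraries were identical.

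The members and lists were chosen with earlier results of these data known. Pathway genes are named if they are among the 4 smallest adjusted p-values past the threshold in their list, or, where fewer than 2 passed, the 2 smallest p-values. *Acvr2b*, *Ltbp1*, *Kdr*, *Cldn5*, *Pdgfrb*, *Wt1*, *Gsn*, *Stard10*, *Nr2f2*, *Myl7*, *Sln*, *Gm35546* and *Ttll5* are not covered by this rule and were added once their values had been seen. Alternatives were DESeq2 1.42.0, limma-voom with sample quality weights (limma 3.58.1), other normalizations and filters, removal of mtDNA-encoded genes, sex, the replicate number as a block, and libraries left out. Deviations of same-numbered hearts from their group means correlated between -0.225 and 0.339. Hearts of different numbers were not compared, so this does not settle whether the numbers pair hearts. The labels name no pairs. Proteins of the members and data other than the count table were not used here.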

Additional observations from a re-analysis of the deposited data

Results flagged for a closer look

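*Tgfbr1* in hMut replicate 6 was at 60.3 CPM. Its distance to the next hMut heart was 0.534 of the range of the 9 hearts, above the critical value of 0.493 in Dixon's test. *Tgfbr2* in the same heart was at 110 CPM, and its distance to the next heart was 0.509 of the range. Of the 18 groups of hearts tested, 9 genes in 2 groups each, these 2 stood out, and chance gives about 5% of groups. The high macrophage marker sum and low cardiomyocyte marker sum of this heart are given with the receptors' values above, and their part in these levels was not tested.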

How the results depend on the processing

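*Inhba* was called in all 27 alternatives, *Skil* in 20, *Tgfb2* in 18 and *Ltbp2* in 11, all higher. *Tgfb3* was called in 2, and *Tgfb1*, *Tgfbr1*, *Tgfbr2* and *Smad7* in 0. The one change of direction among the 9 members was *Tgfbr2*, at -0.030 without hMut replicates 6 and 9. The 749 calls over all genes became 1517 with DESeq2, 2081 with limma-voom and sample quality weights together (limma-voom alone was not run), 463 with no filter on low counts and 431 without hMut replicates 6 and 9, and 395 to 1792 with 1 library left out, the extremes being hMut replicates 5 and 2. The 4 members called became 2 with sex as a covariate and 1 to 5 with 1 library left out, with 1 without Ctrl replicate 1 or 6 or hMut replicate 5 or 9. The 12 pathway genes called became 26 with DESeq2, 3 of them lower, 25 with limma-voom and weights, 7 with sex as a covariate, 6 without hMut replicates 6 and 9, and 6 to 31 with 1 library left out, with 31 without hMut replicate 2. With differences of medians, the ratio of *Tgfb2* to *Tgfb1* differed by 0.54 (adjusted exact permutation p = 0.0584) and that of *Tgfb2* to *Tgfb3* by 0.36 (0.0730). Without hMut replicates 6 and 9 they differed by 0.41 and 0.36 (both 0.0509). The ratio of *Tgfbr1* to *Tgfbr2* differed by 0.068 to 0.14 with 1 library left out. With the replicate number as a block there were 195 calls over all genes, 1 among the 9 members (*Inhba*) and 4 among the pathway genes. Here hMut replicate 9 has no Ctrl heart of its number and adds nothing to the contrast. In the block, sign flips within pairs gave differences of 0.49 for *Tgfb2* to *Tgfb1* and 0.44 for *Tgfb2* to *Tgfb3* (both adjusted exact p = 0.0586). These flips left out hMut replicate 9, and the differences equal those of all other hearts without it. Whether the numbers pair the hearts was not settled, and the labels name no pairs. The cause of these shifts was not tested. *Bmp10* and *Nog* rest on few counts in Ctrl, which limits the precision of their fold changes.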
